A study of Mus musculus with 7 samples.

Results

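The GATA factors are transcription factors that bind DNA through a pair of zinc fingers, and the FOG (friend of GATA) proteins are zinc finger cofactors that bind the N-terminal finger of a GATA protein. Here the genes examined were *Gata2*, *Gata3*, *Gata4*, *Gata5* and *Gata6*, with the FOG genes *Zfpm1* (FOG1) and *Zfpm2* (FOG2). They were found by symbol among the 14732 genes listed for embryonic day (E) 11.5 mouse outflow tracts (OFTs), where 7 of 7 were present. Membership is by symbol, with no threshold on a measured value. *Gata1*, the remaining classical GATA gene, was read beside them.

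The RNA came from pooled OFTs of control (WT) embryos, in 3 pools numbered 3, 4 and 5, and of *Gata6STOP/+* embryos, in 4 pools numbered 1, 3, 4 and 5. The *Gata6STOP* allele was made with CRISPR-Cas9 in exon 2 of *Gata6*, where a frameshift leads to a premature stop codon, and the line descends from 1 founder that was crossed to C57BL/6. Every cell of a heterozygous embryo carries 1 mutant allele and 1 wild-type allele from the zygote on, so that no promoter or Cre limits the tissue affected. The study's resource list gives *Mib1* mutant alleles as the background of the injected line, and the labels do not say which *Mib1* alleles the pools carried. The methods describe 3 pools per genotype, whereas the labels give 4 mutant pools. Embryos and litters of a pool are not named. Reads on listed genes numbered 17783655 to 29035529 per control pool and 24736761 to 34467710 per mutant pool.

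The OFT is the arterial pole of the embryonic heart and is built from second heart field, neural crest and endocardial cells. GATA4, GATA5 and GATA6 are the cardiac GATA factors, which share many DNA sites and act with NKX2-5, TBX5, MEF2 and HAND proteins on genes of heart muscle and cushions. FOG2 is known from the heart and can turn a GATA protein into a repressor through chromatin-modifying complexes. GATA1, GATA2, GATA3 and FOG1 are best known from blood cells, GATA2 also from endothelium and GATA3 from sympathetic neurons and the pharyngeal region.

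Markers of the labelled tissue were present in every pool. Summed over the listed markers, myocardial genes took 15386 to 20772 CPM (counts scaled to a common library size) per pool, with *Myh7*, a ventricular-type myosin heavy chain, the most abundant. Smooth muscle genes took 3112 to 4109 CPM, cushion mesenchyme genes 3129 to 4293 CPM, and endothelial and endocardial genes 865 to 1165 CPM. All 10 myocardial, 10 endothelial, 8 smooth muscle and 9 cushion markers were in the table. Of 11 pharyngeal and foregut markers, 9 were not listed, among them *Epcam*, *Foxa2* and *Shh*. Relative to their level, red cell genes varied most between pools, from 2561 CPM in control replicate 4 to 7840 CPM in *Gata6STOP/+* replicate 5. Their groups overlapped. By mean CPM over all pools, not divided by gene length, *Tek* was highest among endothelial and *Acta2* among smooth muscle markers. *Vcan* was highest among cushion, *Hbb-y* among red cell and *Krt8* among pharyngeal markers. In control pools alone *Cdh5* had a higher mean than *Tek* (175 and 169 CPM). Epicardial markers summed to 409 to 579 CPM (led by *Upk3b*) and megakaryocyte and blood progenitor markers to 269 to 376 CPM (led by *Cd34*, which endothelium also expresses).

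CPM are scaled between pools but not for gene length, so they compare pools for 1 gene. To compare genes, CPM were divided by the length of all annotated exons. In control pools the order was then *Gata4* at 97.8±13.0 CPM per kb (mean±s.d., n=3), *Zfpm1* at 66.4±13.1, *Gata6* at 44.0±4.45, *Gata5* at 27.3±3.79, *Gata3* at 7.28±1.26, *Gata2* at 4.92±0.494 and *Zfpm2* at 3.01±0.422. The ranges of neighbours in this order did not overlap among the control pools. Averaged over all pools, mutant ones included, *Gata4* lay at the 97.1 percentile of all listed genes per kb and *Zfpm2* at the 30.4 percentile. In control pools *Gata1* had 1.07±0.168 CPM per kb.

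The place of *Gata6* depended on which length was used. Its annotated exons add up to 6.508 kb, but its principal transcript has 3.234 kb. Per kb of principal transcript, *Gata6* had 88.5 CPM and *Zfpm1* 68.6 CPM in control pools, and they could not be ordered, since their ranges of 79.6 to 97.5 and 56.4 to 83.1 overlapped. *Gata4* remained first by this measure, at 113 CPM per kb. *Gata3* and *Gata2* could not be ordered either, since their ranges of 8.01 to 10.8 and 6.62 to 8.08 CPM per kb overlapped.

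**Figure D1:**
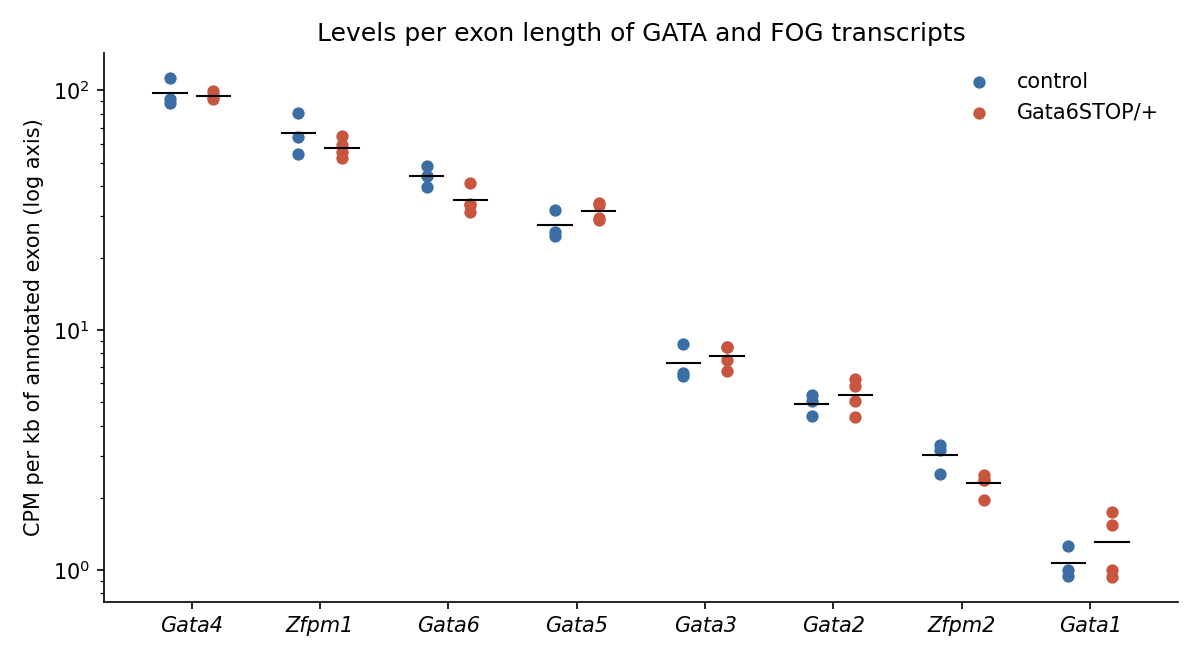
Level of each gene in CPM per kb of annotated exon (log axis) in the 3 control pools (blue) and 4 *Gata6STOP/+* pools (red); each point is a pool and each line a group mean. *Gata4*, *Zfpm1*, *Gata6* and *Gata5* lie above *Gata3*, *Gata2* and *Zfpm2*, with *Gata1* lowest.

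*Gata6*, the targeted gene, was read first as a check of the labels. It had 315, 257 and 286 CPM in control replicates 3, 4 and 5 and 268, 203, 219 and 217 CPM in *Gata6STOP/+* replicates 1, 3, 4 and 5. Mutant replicate 1 lay above control replicate 4, and the other 3 mutant pools lay below every control pool. The means were 286±28.9 and 227±28.7 CPM, so mutant pools held 79.2% of the control level. The log2 fold change was −0.34 (s.e. 0.0987), with a 95% confidence interval from −0.56 to −0.12, that is, a change between −32.0% and −8.04%. The adjusted *P*-value over all 14732 genes was 0.389 with limma (unadjusted 0.00578), and the exact two-sided permutation test gave 0.114. In this design of 3 against 4 pools that test cannot go below 0.0571.

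The *Gata6* gene spans 11052064 to 11085635 of chromosome 18 (GRCm38, plus strand). Reads of the mutant and wild-type alleles were not told apart in these values, so the level is the sum of both, and fewer cells that express *Gata6* and less *Gata6* RNA per cell cannot be told apart in pooled tissue. Between 5105 and 7652 reads stood behind each value, which puts the counting error at 1.4% or less, far under the spread of 10.1% among control pools and 12.7% among mutant pools. The call depended on the test: with edgeR's likelihood ratio test and the replicate number as a block the log2 fold change was −0.42 with an adjusted *P*-value of 0.0164, whereas without the block the same test gave −0.34 and 0.154. *Gata6STOP/+* replicate 1, the mutant pool with the most *Gata6* RNA, has no control of its number and does not count in the blocked comparison. The blocked likelihood ratio test also called 9 of 13 red cell markers, against 0.801% of all genes. Without the block it called 0 of these markers, against 0.713% of all genes. They mark the same cell type and summed to between 2561 and 7840 CPM per pool, so their calls are not independent.

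**Figure D2:**
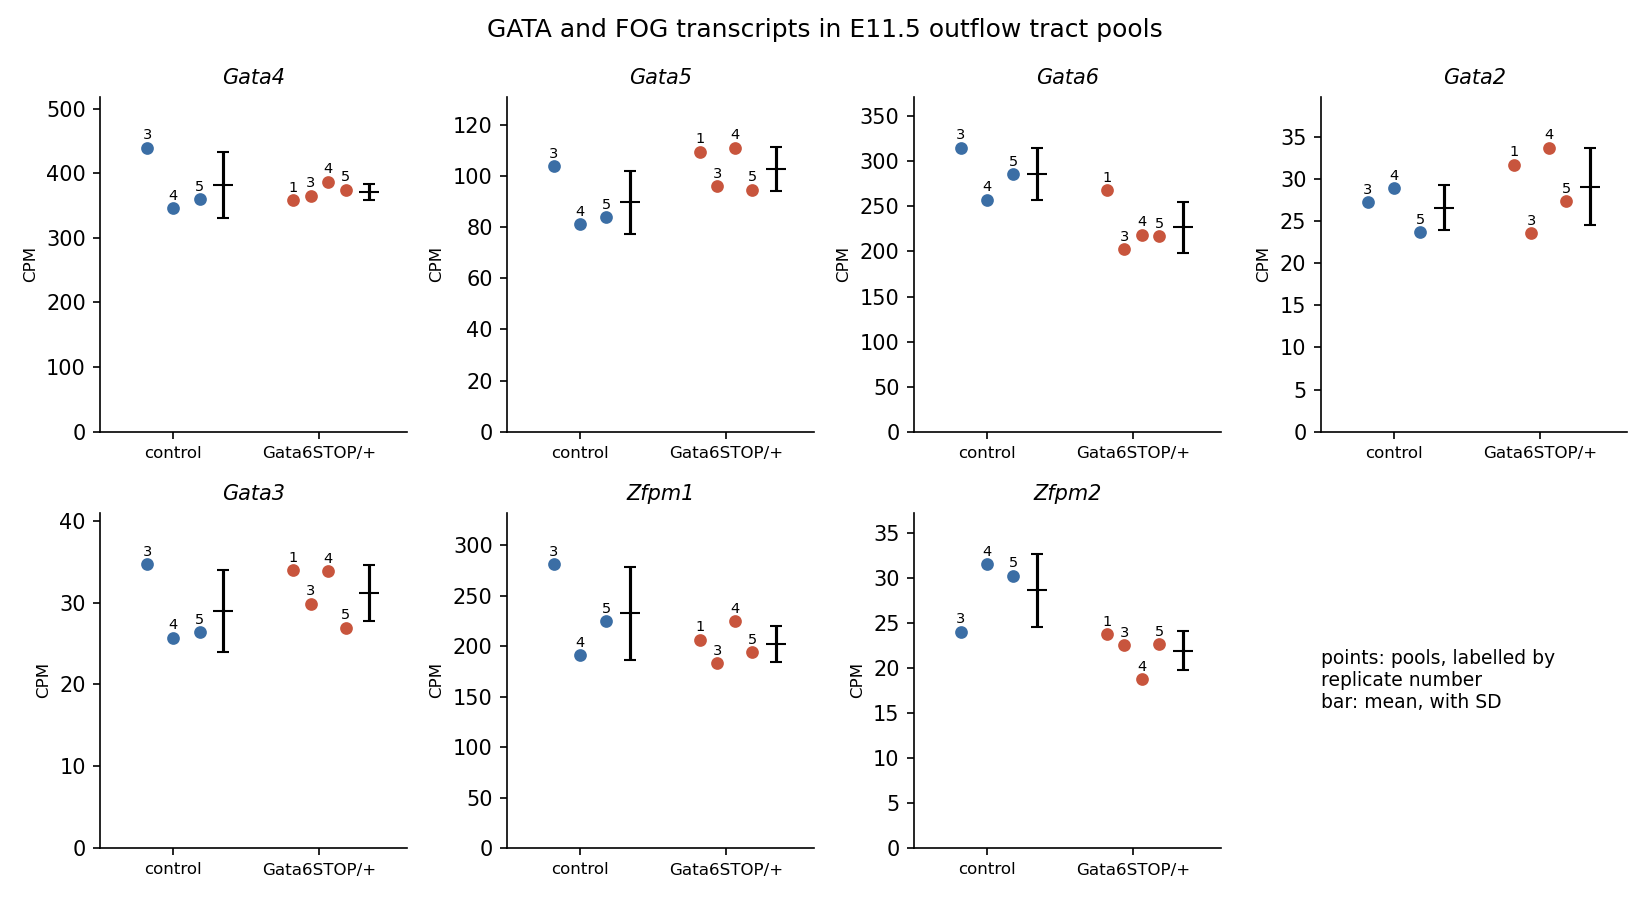
CPM of the 7 GATA and FOG genes in each pool (points, labelled with the replicate number; axes start at 0), with group means and s.d. as bars. The 4 mutant pools lie below the 3 control pools for *Zfpm2*, and the groups overlap for the other 6 genes.

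*Gata4* and *Gata5*, the other cardiac GATA genes, can stand in for *Gata6* at shared sites, and the comparison asks whether their RNA differed when 1 copy of *Gata6* was lost. *Gata4* had 440, 346 and 360 CPM in the control pools and 359, 365, 387 and 375 CPM in the mutant pools. The mutant values fell within the control range. The means were 382±50.7 and 371±12.3 CPM, with a log2 fold change of −0.03 (s.e. 0.0825, 95% confidence interval −0.21 to 0.15, adjusted *P*-value 0.946 with limma). Control replicate 3 was the highest pool, and without it the log2 fold change turned to 0.07. The interval does not reach a gain of more than 11% or a loss of more than 13.8%. The gene spans 63198922 to 63271692 of chromosome 14 (minus strand).

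*Gata5*, which is known from endocardium, had 104, 81.2 and 83.8 CPM in control pools and 109, 96.0, 111 and 94.6 CPM in mutant pools. All 4 mutant pools lay above control replicates 4 and 5, and control replicate 3 lay among them. The means were 89.6±12.4 and 103±8.70 CPM. The log2 fold change was 0.20 (s.e. 0.0944), with a 95% confidence interval from −0.01 to 0.41 and an adjusted *P*-value of 0.632 with limma. Leaving out 1 pool moved it between 0.13 (without control replicate 4) and 0.31 (without control replicate 3), with adjusted *P*-values of 0.419 to 0.818. The gene spans 180325133 to 180334699 of chromosome 2 (minus strand), and the antisense gene *Gata5os*, which overlaps it, had 0.631 to 1.44 CPM.

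*Gata2* and *Gata3* were lower than the cardiac GATA genes, and their groups overlapped. *Gata2* had 27.2, 28.8 and 23.6 CPM in control pools and 31.7, 23.5, 33.7 and 27.3 CPM in mutant pools. Its log2 fold change was 0.12 (s.e. 0.121, 95% confidence interval −0.15 to 0.38, adjusted *P*-value 0.839 with limma). *Gata3* had 34.8, 25.7 and 26.4 CPM in control pools and 34, 29.9, 33.9 and 27.0 CPM in mutant pools. Its log2 fold change was 0.11 (s.e. 0.118, 95% confidence interval −0.15 to 0.37, adjusted *P*-value 0.845). Leaving out 1 pool moved the log2 fold change of *Gata2* between 0.04 and 0.21 and that of *Gata3* between 0.03 and 0.25, and GC correction took *Gata2* to 0.19. For these genes 422 to 969 reads stood behind a value, and the intervals leave room for gains of up to 30.6% in *Gata2* and 29.3% in *Gata3*. The gene *4930412O13Rik*, on the strand opposite to *Gata3* and overlapping it, had 2.35 to 6.31 CPM. *Gata2* spans 88193891 to 88207032 of chromosome 6 (plus strand) and *Gata3* 9857078 to 9890034 of chromosome 2 (minus strand). *Gata1*, which drives red cell genes, had 2.28 to 4.27 CPM over the 7 pools.

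The FOG genes were the next comparison. *Zfpm2* had 24.1, 31.6 and 30.3 CPM in control pools and 23.7, 22.5, 18.8 and 22.7 CPM in mutant pools. Every mutant pool lay below every control pool, but mutant replicate 1 and control replicate 3 were only just apart. The means were 28.7±4.03 and 21.9±2.19 CPM, with a log2 fold change of −0.37 (s.e. 0.112) and a 95% confidence interval from −0.62 to −0.13. The adjusted *P*-value was 0.401 with limma, and the exact permutation test gave 0.0571, the smallest value it can give here. Leaving out 1 pool at a time moved the log2 fold change between −0.49 and −0.30. The gene spans 40655035 to 41104592 of chromosome 15 (plus strand).

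*Zfpm1* had 282, 191 and 225 CPM in control pools and 206, 183, 225 and 194 CPM in mutant pools. The log2 fold change was −0.19 (s.e. 0.117, 95% confidence interval −0.44 to 0.07, adjusted *P*-value 0.738 with limma). It depended on single control pools, at −0.04 without control replicate 3 and −0.32 without control replicate 4. FOG1 works with GATA1 in red cell precursors, and the summed red cell markers were 3020, 2561 and 6141 CPM in control pools and 2965, 4350, 4767 and 7840 CPM in mutant pools. Their part in the *Zfpm1* values was not tested. The gene spans 122282141 to 122337251 of chromosome 8 (plus strand).

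Read against the whole table, 0 of the 7 genes and 0 of all 14732 genes (0.0%) had an adjusted *P*-value under 0.05 with limma. At an unadjusted *P*-value under 0.05, limma gave 1187 genes (8.06%), with 3.88% of all genes lower and 4.17% higher in mutant pools. *Gata6* and *Zfpm2*, 2 of the 7, were among the lower ones. Groups did not overlap for 1 of the 7 genes, *Zfpm2*, against 8.47% of all genes (4.16% lower and 4.31% higher in mutant pools). EdgeR's quasi-likelihood test on the recovered reads called 0 genes, its likelihood ratio test 105 (0.713%; 0.801% with the replicate block) and DESeq2 88 of 14729 (0.597%). Without the block *Gata6* was not among the calls of the likelihood ratio test or DESeq2, with adjusted *P*-values of 0.154 and 0.102, and *Zfpm2* was not either, with 0.133 and 0.158.

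**Figure D3:**
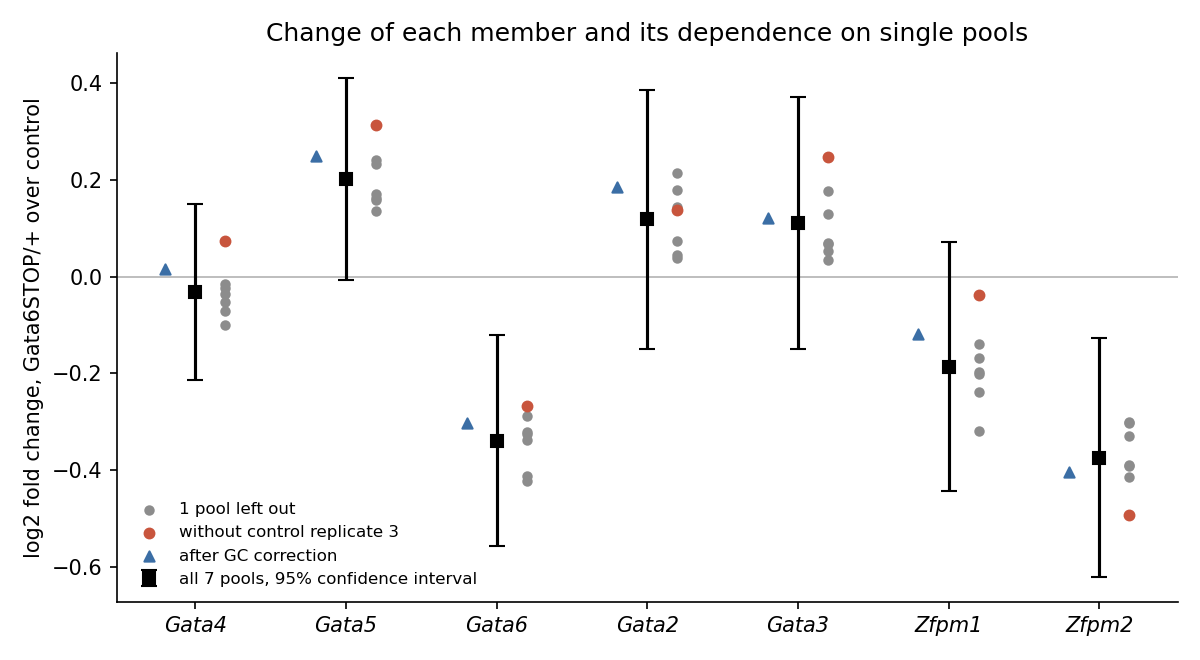
Log2 fold change (*Gata6STOP/+* over control) of the 7 genes with all pools (squares, with the 95% confidence interval), with 1 pool left out (grey points, red without control replicate 3) and after GC correction (triangles). The intervals of *Gata6* and *Zfpm2* lie below 0, and leaving out control replicate 3 gives the highest value for *Gata4*, *Gata5*, *Gata3*, *Gata6* and *Zfpm1*.

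Control replicate 3 held the highest value of all 7 pools for *Gata3*, *Gata4*, *Gata6* and *Zfpm1*, and this pool stood apart by base composition. Genes were parted into 10 bins of about equal size by the GC share of their longest transcript, and the median deviation of a pool from the mean log2 level of each gene was taken. In control replicate 3 it went from −0.15 in the lowest bin (31.0% to 41.3% GC) to 0.14 in the highest (57.7% to 71.8% GC). In mutant replicate 1 it went the other way, from 0.08 to −0.06, and in the other 5 pools the extreme bins stayed between −0.05 and 0.05. *Zfpm1* has 66.8% GC, *Gata2* 58.2%, *Gata4* 57.4%, *Gata5* 56.9%, *Gata6* 55.3%, *Gata3* 49.7% and *Zfpm2* 44.0%.

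After the median of each GC bin was subtracted in each pool, the log2 fold change was −0.30 for *Gata6*, −0.40 for *Zfpm2*, 0.25 for *Gata5*, 0.02 for *Gata4* and −0.12 for *Zfpm1*, so the sign of *Gata4* turned. *Gata6* then had an adjusted *P*-value of 0.474 and *Zfpm2* of 0.245 with limma. *Zfpm2* remained without overlap, at 25.4, 31.2 and 30.2 CPM in control pools and 23.0, 22.4, 19.0 and 22.5 CPM in mutant pools. This correction was chosen after the values were seen.

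A ratio within a pool does not depend on how pools are scaled. The ratio of *Gata4* to *Gata6* CPM was 1.39, 1.34 and 1.26 in control pools and 1.34, 1.80, 1.77 and 1.73 in mutant pools. Mutant replicate 1 lay among the control pools, and the other 3 lay above all of them. The mean log2 difference was 0.31 (exact permutation *P*-value 0.171), and 0.41 without mutant replicate 1.

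The ratio of *Gata5* to *Gata6*, chosen after its values were seen, was 0.330, 0.315 and 0.293 in control pools and 0.408, 0.473, 0.508 and 0.436 in mutant pools. Here the groups did not overlap, with means of 0.313±0.0184 and 0.456±0.0435, and the GC-corrected ratios of 0.292 to 0.322 and 0.410 to 0.504 did not overlap either. Over all 14677 other genes with reads in every pool, the ratio to *Gata6* did not overlap between groups for 27.6% (27.5% with mutant pools higher), so a gap of this kind was common for any gene set against *Gata6*. The ratio of *Gata4* to *Gata5* was 4.23, 4.26 and 4.29 in control pools, a narrow range, and 3.28, 3.81, 3.48 and 3.96 in mutant pools, all below it. For 13.7% of the other genes the ratio to *Gata5* did not overlap, with mutant pools higher for 0.416%. Among the 21 possible ratios between the 7 genes, 7 did not overlap, 3 of them with *Gata6*. The share over all pairs of listed genes was not counted, so this number is not read as a trait of the 7 genes. The ratios share their genes and are not independent.

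**Figure D4:**
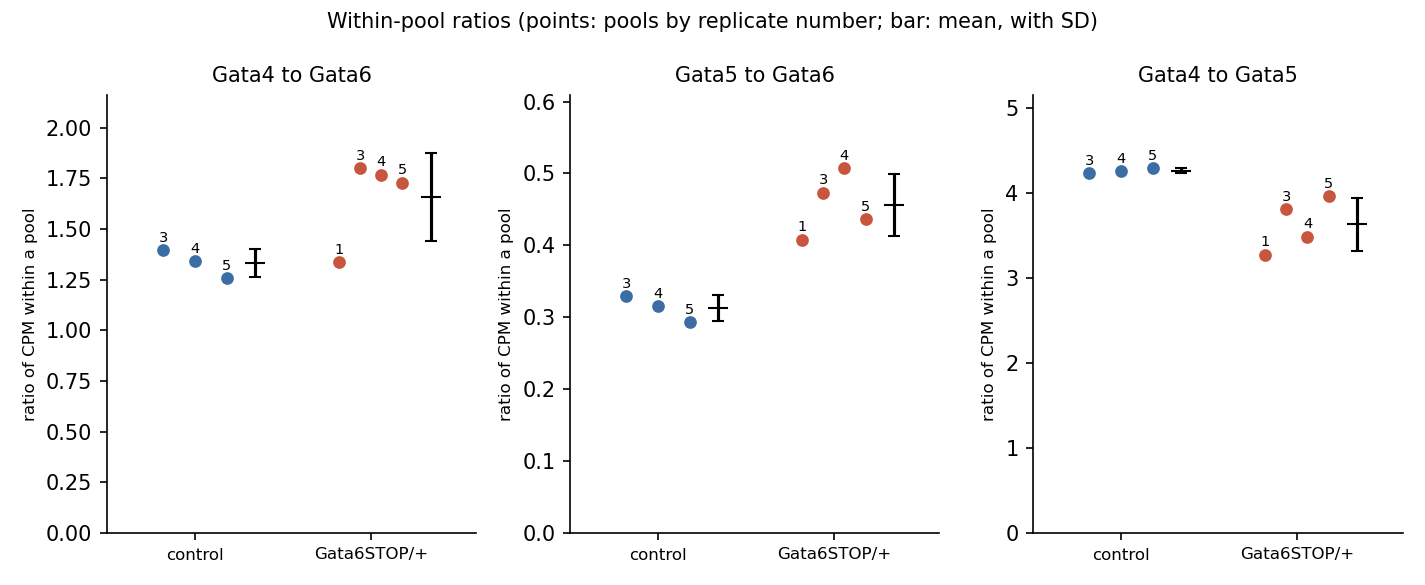
Ratios of CPM within each pool (points, labelled with the replicate number; axes start at 0), with group means and s.d. as bars. *Gata6STOP/+* replicate 1 has a *Gata4* to *Gata6* ratio of 1.34, within the control range, while all 4 mutant pools lie above the control pools for *Gata5* to *Gata6* and below them for *Gata4* to *Gata5*.

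Added up per kb of exon, *Gata4*, *Gata5* and *Gata6* gave 193, 153 and 162 CPM per kb in control pools and 167, 154, 167 and 158 in mutant pools. The groups overlapped, with means of 169±21.0 and 161±6.28 CPM per kb and a log2 difference of −0.06 (exact permutation *P*-value 0.686). Without control replicate 3 the difference was 0.04. The share of *Gata6* in this sum was 26.1±1.03% in control and 21.6±2.18% in mutant pools, and that of *Gata5* was 16.2±0.318% and 19.4±0.966%. For both shares the groups did not overlap, as was the case for the ratio to *Gata6* of 27.6% of all genes and for the ratio to *Gata5* of 13.7%. For *Gata6* mutant replicate 1 (24.8%) lay just under control replicate 3 (25.1%). The share of *Gata4* was 57.8±0.717% and 59.0±2.64%, with overlap. These shares depend on the length used. Per kb of principal transcript the log2 difference of the sum was −0.11, with overlap, and *Gata6* made up 38.7±1.27% in control and 33.1±2.85% in mutant pools, again without overlap.

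Genes next to *Gata6* were read because the allele was made on this chromosome and *Mib1* lies 233 kb away. Within 1 Mb, 11 other genes were listed, and groups did not overlap for 1 (9.09%, near the 8.47% of all genes). This gene, *Rbbp8*, which takes part in DNA end resection, had 34.1, 36.3 and 36.4 CPM in control pools and 42.8, 38.4, 38.8 and 39.6 CPM in mutant pools (log2 fold change 0.16, adjusted *P*-value 0.569 with limma). *Mib1*, a ubiquitin ligase for Notch ligands, had 111 to 126 CPM in control and 119 to 134 CPM in mutant pools (0.10, adjusted *P*-value 0.736). *1010001N08Rik*, on the opposite strand and overlapping the start of *Gata6*, had 23.3 to 28.9 and 21.8 to 28.4 CPM (−0.06). The kit keeps strand, but the strand setting of the counting is not given in the sources used here. The remaining neighbours *Rock1*, *Greb1l*, *Esco1*, *Snrpd1*, *AC090479.2*, *Gm6277*, *Cables1* and *Tmem241* overlapped between groups, with log2 fold changes between −0.15 and 0.25.

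Of 29 cardiac partners of GATA proteins, all were measured, and 0 passed the adjusted threshold in limma, with 7 at an unadjusted *P*-value under 0.05 (6 higher and 1 lower, against 4.17% and 3.88% of all genes). Groups did not overlap for 5 (17.2%, against 8.47% of all genes), 4 higher and 1 lower. The median log2 fold change was 0.04, beside −0.00073 over all genes. When 1 pool was left out, this median lay between 0.014 (without mutant replicate 1) and 0.069 (without mutant replicate 3). *Hand1*, a bHLH factor of the heart and pharyngeal arches, had 74.1, 57.6 and 58.0 CPM in control pools and 89.5, 79.8, 88.6 and 76.8 CPM in mutant pools. All mutant pools were above the control pools, with means of 63.2±9.41 and 83.7±6.34 CPM and a log2 fold change of 0.41 (s.e. 0.0955, adjusted *P*-value 0.246 with limma). It was the 1 partner that edgeR's likelihood ratio test and DESeq2 called, but the likelihood ratio test with the replicate block and the quasi-likelihood test called none. *Hey2*, a Notch target that represses GATA-driven transcription, had 84.8±8.15 and 97.1±3.08 CPM (0.20, and 0.12 to 0.25 when 1 pool was left out). *Med1*, a Mediator subunit that binds GATA proteins, had 58.2±1.88 and 66.4±2.51 CPM (0.19). *Smad4*, the shared SMAD of BMP and TGFβ signals, had 106±6.23 and 116±1.56 CPM (0.13, and 0.09 to 0.17 when 1 pool was left out). *Lmo4*, a LIM-only adaptor, was the 1 partner with every mutant pool below the control pools, at 93.7±8.54 and 82.4±2.66 CPM (−0.18, and −0.24 to −0.11 when 1 pool was left out).

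*Nkx2-5*, *Tbx5*, the measured *Mef2* genes and *Hand2* overlapped between groups. *Nkx2-5*, which binds GATA4 on cardiac promoters, had 112, 85.8 and 99.7 CPM in control and 69.1, 103, 101 and 89.2 CPM in mutant pools. *Tbx5* had 7.85 to 16.4 CPM over all pools. *Isl1*, which marks second heart field progenitors, had 37.5, 34.6 and 42.4 CPM in control and 70.5, 47.8, 55.4 and 42.3 CPM in mutant pools, where mutant replicate 5 lay just under the highest control pool. Its log2 fold change was 0.47 (s.e. 0.146, adjusted *P*-value 0.419 with limma), with 0.34 as the lowest value when 1 pool was left out.

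FOG proteins recruit the nucleosome remodelling and deacetylase (NuRD) complex and the corepressor CtBP. Of 15 genes for these complexes, all were measured, with a median log2 fold change of −0.01, and 0 passed the threshold in limma, edgeR or DESeq2 (1 of 15 at an unadjusted *P*-value under 0.05 in limma, against 8.06% of all genes). Groups did not overlap for 2 (13.3%, against 8.47% of all genes), *Gatad2b* and *Gatad2a*, and the gaps were small. *Gatad2b* had 97.2, 95.5 and 92.9 CPM in control and 108, 99.1, 101 and 111 CPM in mutant pools (log2 fold change 0.14). *Gatad2a* had 151, 142 and 138 CPM in control and 129, 134, 138 and 137 CPM in mutant pools (−0.10, adjusted *P*-value 0.720 with limma, and −0.12 to −0.06 when 1 pool was left out), and control replicate 5 and mutant replicate 4 were only just apart. The ATPase gene *Chd4* and the deacetylase genes *Hdac1* and *Hdac2* overlapped. Among 9 of 10 listed relatives with a GATA-type zinc finger, which include *Gata1* and share *Gatad2a*, *Gatad2b* and the *Mta* genes with the corepressor list, no other gene was without overlap. Of 7 listed opposite-strand genes at GATA loci, *Gata5os* was measured.

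Of 32 genes listed as cardiac and vascular targets of GATA factors, 31 were measured. None passed the adjusted threshold in limma, edgeR or DESeq2, 7 had an unadjusted *P*-value under 0.05 in limma (3 higher and 4 lower, against 8.06% of all genes in either direction), and the median log2 fold change was −0.05. Groups did not overlap for 1 of 31 (3.23%, under the 8.47% of all genes), *Chrm2*, the muscarinic receptor of the heart, with 14.3±1.16 CPM in control and 17.5±1.17 CPM in mutant pools (0.29, adjusted *P*-value 0.436). Leaving out mutant replicate 1 turned the median of the list to 0.01.

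The largest differences in this list were those of the natriuretic peptide genes, which chamber myocardium expresses. *Nppa* had 32.1, 174 and 18.3 CPM in control pools and 3.26, 28.3, 6.63 and 11.8 CPM in mutant pools. *Nppb* had 10.2, 58.1 and 13.3 CPM in control and 4.0, 10.9, 7.28 and 12.7 CPM in mutant pools. The groups overlapped for both, and control replicate 4 was far above the other pools. With all pools the log2 fold changes were −2.27 (s.e. 0.748) and −1.27 (s.e. 0.524), with adjusted *P*-values of 0.455 and 0.575 in limma. Without control replicate 4 they were −1.33 and −0.52. The same pool was highest for *Gja5*, *Npr3*, *Emcn* and *Ednrb*.

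GATA proteins bind the letters AGATAA and its variants that begin with T, end with G or do both, and these 4 strings were searched on both strands in the 250 bases before the RefSeq start (GRCm38.p6). *Nppa*, *Nppb* and *Isl1* are printed, chosen after their values were seen, since they had the largest values in this list at an unadjusted *P*-value under 0.05. Sequences run 5′ to 3′ along the gene, and capitals mark the GATA letters. *Nppa* is on the plus strand (chr4:148000472-148000721), *Nppb* on the plus strand (chr4:147985650-147985899) and *Isl1* on the minus strand (chr13:116309689-116309938).
Nppa: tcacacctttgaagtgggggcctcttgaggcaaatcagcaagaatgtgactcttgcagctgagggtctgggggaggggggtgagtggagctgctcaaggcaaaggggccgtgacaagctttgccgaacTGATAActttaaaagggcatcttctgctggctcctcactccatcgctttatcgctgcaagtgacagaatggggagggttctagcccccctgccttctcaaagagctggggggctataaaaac
Nppb: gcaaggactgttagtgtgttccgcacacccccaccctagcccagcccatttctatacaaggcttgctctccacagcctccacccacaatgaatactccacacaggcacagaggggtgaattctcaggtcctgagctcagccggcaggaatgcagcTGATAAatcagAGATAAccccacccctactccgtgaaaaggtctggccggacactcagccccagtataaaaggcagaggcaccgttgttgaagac
Isl1: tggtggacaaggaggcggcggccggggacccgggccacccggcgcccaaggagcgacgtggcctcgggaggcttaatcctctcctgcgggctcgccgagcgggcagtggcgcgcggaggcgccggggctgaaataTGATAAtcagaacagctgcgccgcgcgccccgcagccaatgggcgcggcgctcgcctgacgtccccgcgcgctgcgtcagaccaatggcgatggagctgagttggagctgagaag

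*Nppa* and *Isl1* hold TGATAA once, and *Nppb* holds it and also, further along, AGATAA. Of the 31 measured target genes, 27 had a promoter in the table used, and 10 of them (37%) held at least 1 of the 4 letter strings, against 20.2% of the 10852 expressed genes and 29.7% of all 27025 genes with a promoter. *Hand2*, *Myh6*, *Plxna2*, *Slc8a1*, *Smarcd3*, *Tnnt2* and *Wnt2* were the other 7. Of the GATA and FOG genes themselves, *Gata2*, *Gata3*, *Gata5* and *Zfpm1* had 5 promoter entries, in which none of these strings was found. A match is a string of letters and not a measured binding site.

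GATA4 and GATA6 also drive endoderm genes, a list with 10 of 15 genes measured. None passed the threshold in limma (2 at an unadjusted *P*-value under 0.05, 1 in each direction), and groups did not overlap for these 2 of 10, against 8.06% and 8.47% of all genes. *Lama1*, a laminin chain of basement membranes, had 12.1, 16.4 and 12.1 CPM in control pools and 20.9, 18.8, 17.9 and 21.3 CPM in mutant pools. All mutant pools were above the control pools, with a log2 fold change of 0.54 (s.e. 0.119, adjusted *P*-value 0.241 with limma). *Pdgfra*, a receptor of cushion mesenchyme and endoderm, had 311, 227 and 280 CPM in control pools and 223, 159, 167 and 223 CPM in mutant pools. All mutant pools were below, with a log2 fold change of −0.50 (s.e. 0.139, adjusted *P*-value 0.354), and control replicate 4 and mutant replicates 1 and 5 were close. DESeq2 called both genes, edgeR's likelihood ratio test called *Lama1* without and *Pdgfra* with the replicate block, and its quasi-likelihood test without the block called neither. *Col4a1*, *Lamb1* and *Lamc1* overlapped.

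**Figure D5:**
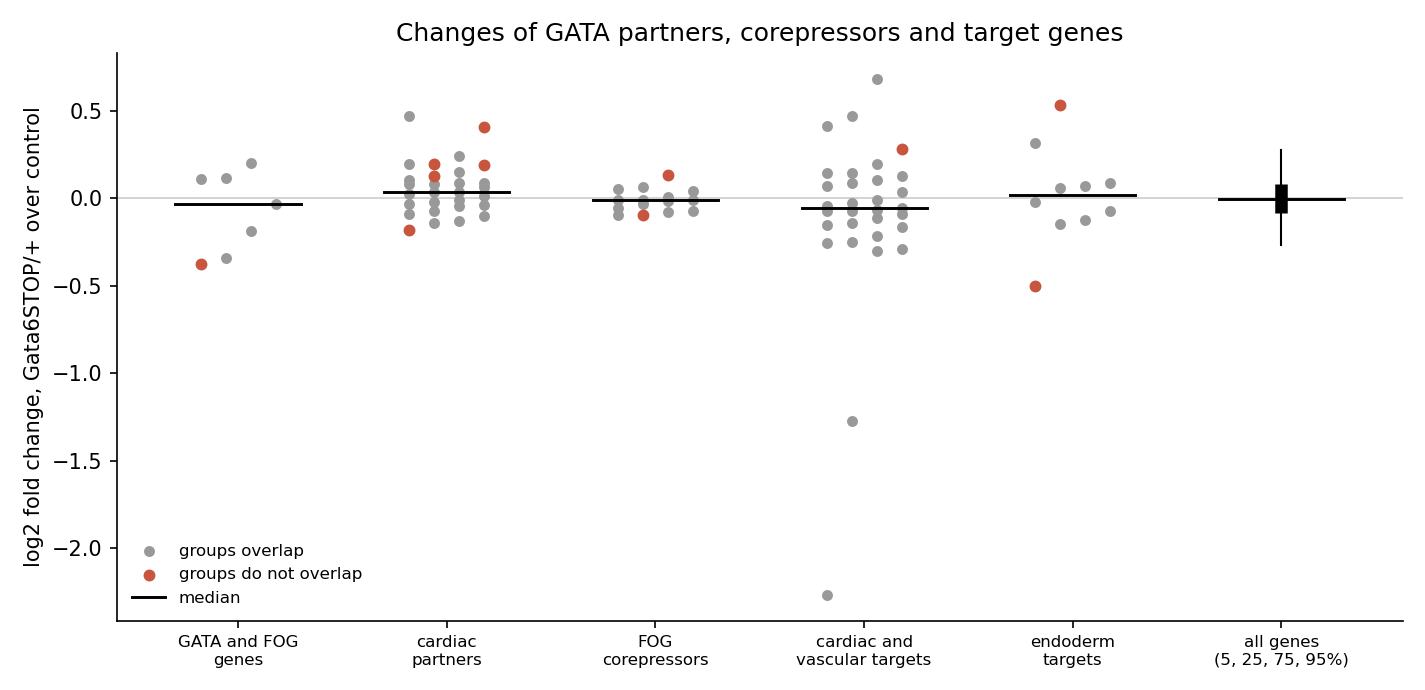
Log2 fold change (*Gata6STOP/+* over control) of each measured gene by list (points, red where the groups do not overlap; line, median), with the middle 50% (thick) and 90% (thin) of all 14732 genes at the right. Most listed genes lie within the range of all genes, and the 2 lowest points are *Nppa* (−2.27) and *Nppb* (−1.27).

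The summed markers of neural crest and glia were lower in every mutant pool, though of the single genes *Ednrb* alone was without overlap. Of 8 neural crest and glia markers 5 were measured, and *Foxd3* and *Fabp7* were among those not listed. Their sum was 137, 162 and 117 CPM in control pools and 98.6, 85.7, 89.6 and 86.6 CPM in mutant pools, all below. *Erbb3* was the most abundant, at 58.0 to 104 CPM, while the defining marker *Sox10* had 5.32, 2.66 and 2.35 CPM in control and 2.49, 2.54, 2.89 and 2.76 CPM in mutant pools, with overlap. *Ednrb*, an endothelin receptor that endothelium also expresses, had 22.5, 81.0 and 27.8 CPM in control and 18.6, 17.2, 14.1 and 16.5 CPM in mutant pools, so control replicate 4 stood apart, and without it the log2 fold change of −1.14 was −0.58, the nearest to 0 when 1 pool was left out. *Zfpm2* and *Pdgfra* were also below every control pool in all 4 mutant pools, and *Gata6* in 3 of them, and the part of this cell type in those values was not tested. The sums of the other 9 marker lists overlapped between groups. Of 12 sympathetic and parasympathetic neuron markers 6 were measured, and *Phox2a* and *Dbh* were among those not listed. Their sum was 46.9 to 70.5 CPM in control and 54.7 to 65.5 CPM in mutant pools, with *Tubb3* making up 53.7%. Within that list *Th*, which makes catecholamines, had 1.29, 1.14 and 1.51 CPM in control and 2.28, 2.43, 2.24 and 2.36 CPM in mutant pools (log2 fold change 0.64, adjusted *P*-value 0.285 with limma). *Stmn2*, a neuronal microtubule regulator, had 16.7, 14.1 and 18.9 CPM in control and 22.9, 19.8, 23.5 and 21.7 CPM in mutant pools (0.40, adjusted *P*-value 0.333). For both genes all mutant pools lay above the control pools. They were 2 of the 6 measured (33.3%, against 8.47% of all genes). *Tubb3*, a neuronal tubulin, had a change of the opposite sign, with 46.2, 26.2 and 40.0 CPM in control and 23.7, 27.6, 32.8 and 27.4 CPM in mutant pools (−0.39, adjusted *P*-value 0.595 with limma, with overlap, and −0.63 to −0.22 when 1 pool was left out), and *Elavl4* had a log2 fold change of 0.01. The part of neurons in the values of *Gata2* and *Gata3* was not tested.

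Finally, genes were ranked by how closely their log2 levels followed *Gata6* and *Gata4* over the 7 pools, among 10267 genes averaging 10 CPM or more. These correlations describe pools that differ in library, depth and base composition, and no *P*-value is given. *Actg1*, a cytoplasmic actin, followed *Gata6* most closely (Pearson's r of 0.986), and *Zfp358*, *Pld3*, *Tbc1d9b* and *Aldh2* came next, down to 0.972. After the group means were subtracted, *Rlf*, *Csrnp2*, *Zfp358* and *Ccdc91* were among the first 5 (0.991 to 0.985), so *Zfp358* was on both lists. *Git1* followed *Gata4* most closely (0.995), and *Gnl1*, *Bmp2* and *Slc12a9* were among the next 4. After the group means were subtracted, *Metrn*, *Wnk4*, *Podxl2* and *Git1* came first. No other member was among these genes.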

How the data were processed

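OFT RNA was sequenced from 3 control and 4 *Gata6STOP/+* pools, mapped to genotype and replicate number by the labels. The authors prepared directional poly(A) libraries, sequenced single-end reads, trimmed them with Cutadapt, quantified genes with RSEM on GRCm38 (Ensembl), required 1 CPM or more in 3 or more samples, and deposited CPM scaled by the TMM method of edgeR. No column of values was left unused (0). Whole reads were recovered from the CPM steps (100% of values whole, within 0.001), at 17783655 to 34467710 reads per pool. In control replicate 4 and *Gata6STOP/+* replicates 3 and 5 the smallest value stood for 4, 2 and 6 reads. There the step was found by trying divisors up to 20, and the reads of these pools rest on it. Counting intervals would cover counting error only.

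Genes were tested with limma 3.58.1 (R 4.3.3; lmFit, eBayes with trend, no covariates) on log2(CPM + 0.5), a scale that understates changes of low genes, two-sided, with Benjamini-Hochberg adjustment over 14732 genes and a threshold of 0.05; single values were tested by exact permutation (scipy 1.17.1) over the 35 splits of 7 pools. Alternatives were other constants (0.1, 2), averages of 5 CPM or more, no filter, median-of-ratios scaling, the replicate block, leaving out each pool, edgeR 4.0.16 and DESeq2 1.42.0 (both run on those reads), and GC correction. The fits were tested on simulated data. Exon lengths and GC came from GENCODE M21 (GRCm38; 14716 identifiers found). Named genes are all GATA and FOG members, listed genes whose groups do not overlap (up to 6 per list), neighbours of *Gata6* within 1 Mb, the 5 genes closest to *Gata6* and to *Gata4* over the pools, and the top gene of each marker list; others were named after their values were seen, and some genes that the rule names are not reported here. Members, lists and tests were chosen with earlier results of these data known.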

Additional observations from a re-analysis of the deposited data

Results flagged for a closer look

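The ratio of *Gata4* to *Gata6* in the 4 *Gata6STOP/+* pools had 1 pool far from the others. Replicate 1 had a ratio of 1.34, and replicates 3, 4 and 5 had 1.80, 1.77 and 1.73. The gap between replicate 1 and the nearest pool took 0.843 of the whole range. This gap came from *Gata6*, which had 268 CPM in replicate 1 and 203 to 219 CPM in the other 3, while *Gata4* had 359 CPM in replicate 1 and 365 to 387 CPM in the others. By chance about 1 in 20 groups shows such a gap, and this was the largest of 10 measures examined in these 4 pools. The same pool had a median GC deviation of 0.08 in the lowest and −0.06 in the highest of 10 GC bins, and its GC-corrected ratio was 1.34. Its summed myocardial markers were the lowest of all pools, at 15386 CPM against 18274 to 20772 CPM in the others. The part of cell types in its ratio was not tested.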

How the results depend on the processing

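With 3 and 4 pools, gains of up to 30.6% in *Gata2* and 29.3% in *Gata3* stayed within the confidence intervals. The count of genes past the threshold (0 with limma) was 1 with a constant of 0.1, 105 with edgeR's likelihood ratio test and 88 with DESeq2, and 0 to 13 when 1 pool was left out (13 without control replicate 4, 2 without *Gata6STOP/+* replicate 3, 1 without *Gata6STOP/+* replicate 1). *Gata4* turned from −0.03 to 0.016 with GC correction (0.084 also without control replicate 3). Leaving out 1 pool gave −0.099 to 0.074 for *Gata4*, −0.42 to −0.27 for *Gata6* (adjusted *P*-value 0.170 to 0.730 with limma) and −0.13 to 0.037 for the sum of *Gata4*, *Gata5* and *Gata6*. The log2 difference of the sum was −0.11 per kb of principal transcript. The upper values of *Gata4* and of the sum are those without control replicate 3. The constants 0.1 and 2, the filter and median-of-ratios scaling changed no direction or call of the 7 genes.

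With the replicate number as a block, 14 genes passed in limma, 13 in edgeR's quasi-likelihood test, 118 in its likelihood ratio test and 9 in limma after GC correction. *Gata6* passed in the likelihood ratio test with the block (−0.42, adjusted *P*-value 0.0164) and not in the other blocked fits, and *Gata4* was 0.019 with GC correction and the block. No other member's call changed. Pools of the same number correlated at −0.01, −0.12 and −0.0016 in their deviations from the group means, so the numbers were not taken as pairs. No pool correlated best with the pool of its own number in the other group. *Gata6STOP/+* replicate 1 has no control of its number and drops out of the blocked comparison.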
